A study of Homo sapiens with 6 samples.

Results

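The adhesion receptors examined here are 38 genes: 20 integrin subunits and 18 other cell-surface receptors, namely THY1, its Ig-family and related neighbours, CD47, BSG, and the tetraspanins CD9, CD81 and CD151. They were listed by name, with earlier results of these data known, out of 19775 genes that the arrays measure with a probe set of a single gene symbol. A gene was read through its brightest such probe set, and it was tested if its mean log2 signal was at least 4.73, a filter set at percentile 40 of the probe sets. Of the 38 genes, 37 had such a probe set and 33 were tested (17 integrin subunits and 16 other receptors), among 14513 genes tested in all.

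The samples were 6 one-colour arrays of total RNA from human glioma cells, 2 per group. U87MG is an established glioblastoma line and was the parent of both other groups. U87MGL (non-invasive) and U87MGR (highly invasive) came from it through 4 rounds of injection into the left striatum of 6-week-old BALB/c nu/nu mice, which lack T cells, each followed by dissociation of the tumour and culture of its cells. The parental line was kept in medium with serum. Replicates 1 and 2 of a derivative carry different line names (U87MGL2 and U87MGL3, U87MGR2 and U87MGR3), and the labels do not say what the numbers mark or whether a line is a clone, so p-values measure only the spread between these samples. The question put by the series is how the invasive cells differ from the non-invasive and parental cells.

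Integrins are pairs of an alpha and a beta subunit that bind matrix proteins outside the cell and link them, through talin and kindlin, to actin inside. The alpha subunit largely sets the ligand: some pairs bind collagen, some laminin, and some the RGD motif of fibronectin and vitronectin. Ig-family receptors such as NCAM1, L1CAM and ALCAM bind partners on neighbouring cells, and tetraspanins sit beside integrins in the membrane and organise them. Glioma cells move along brain vessels and fibres with the help of such receptors, since the normal brain holds little fibrillar matrix.

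Array medians lay between 5.29 and 5.35. Spiked-in control RNA, which carries no cellular message, set the arrays apart across the groups: both U87MGL arrays lay close to U87MGR replicate 1, U87MG replicate 1 lay close to U87MGR replicate 2, and U87MG replicate 2 stood alone. Distances over 21 control probe sets were 0.682 to 1.05 within these sets of arrays and 4.12 to 6.4 between them. RNA quality was read from actin as 3′ minus 5′ signal, which was -0.01 and 0.22 on the parental arrays and between 0.25 and 0.39 on those of the derivatives. The same measure for GAPDH was highest on U87MGR replicate 2, at 0.24, and between 0.03 and 0.07 on the others. The part that these differences play in the receptor values was not tested. Where 1 array decides a call or a direction among the differences followed through the alternatives, the value without it is given; a group then left with 1 array is assumed to vary like the other groups. The arrays were also blocked by 2 spike-in sets (U87MG replicate 2 joined to the set of U87MG replicate 1) or by 3, which leaves out U87MG replicate 2. Blocking by 2 sets left few calls over all 14513 genes tested. In U87MGR against U87MGL 1 gene was called higher and 3 lower, against 6 and 17 without a block. In U87MGR against U87MG these were 5 and 6, against 270 and 209. In U87MGL against U87MG they were 0 and 0, against 438 and 261. A call lost with 2 sets as a block is therefore not particular to a receptor. With 3 sets U87MG keeps 1 array. There, calls over all genes were lost far less widely in U87MGR against U87MG than with 2 sets. Of the glioma markers, VIM and CD44 were bright on all arrays (means of 14.4 and 13.2), while GFAP, SOX2 and OLIG2 had means of 5.29, 4.90 and 5.14, near the filter, and S100B was below it. CHI3L1 was called lower in both derivatives than in U87MG (-3.05 in U87MGR and -4.13 in U87MGL, limma adjusted p = 0.0185 and 0.00795), and NES differed by 1.18 and 1.14 (adjusted p = 0.218 and 0.205).

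U87MGR against U87MGL called 1 receptor, THY1, which was lower in the invasive cells, and none that was higher. Of all genes tested, 0.117% were called lower and 0.0413% higher in this comparison (0.158% either way). U87MGL against U87MG called 3 receptors higher (THY1, ITGA2 and ALCAM) and none lower, where 3.02% and 1.8% of all genes were called (4.82% either way). U87MGR against U87MG called 1 receptor lower, CADM1, and none higher, where 1.44% and 1.86% of all genes were called (3.3% either way). All calls are limma adjusted p-values under 0.05 over all genes tested. At the unadjusted limma threshold of 0.05, 0 receptors were higher and 7 lower in U87MGR against U87MGL (3.91% and 4.94% of all genes). There were 3 higher and 3 lower in U87MGR against U87MG (11% and 9.78%), and 6 higher and 2 lower in U87MGL against U87MG (13.2% and 10.1%).

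**Figure D1:**
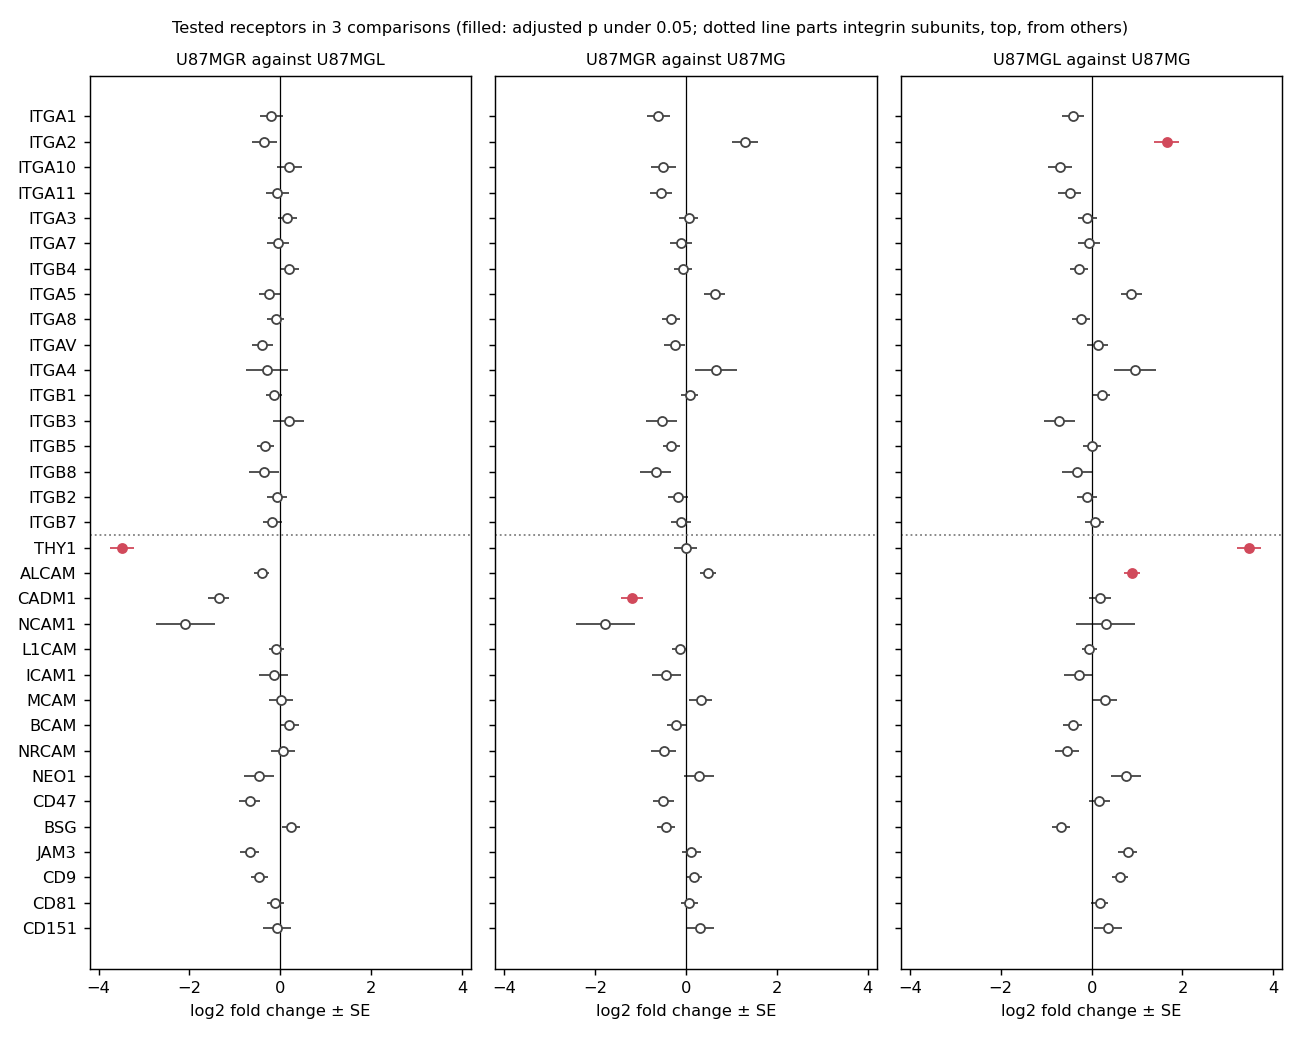
The log2 fold change of the 33 tested receptors in each of the 3 comparisons, with its standard error as a bar; filled points have an adjusted p under 0.05, and the dotted line parts the integrin subunits (top) from the other receptors. THY1 stands at -3.48 in U87MGR against U87MGL, -0.01 in U87MGR against U87MG and 3.47 in U87MGL against U87MG, and most integrin subunits lie near 0.

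THY1 (CD90), a small Ig-domain protein held in the membrane by a lipid anchor and itself a partner of integrins, was high in the non-invasive derivative alone. Its log2 signal was 9.06 and 8.53 in U87MGL, 5.39 and 5.25 in U87MG, and 5.61 and 5.01 in U87MGR (replicates 1 and 2). Both U87MGL arrays lay above the other 4, whose values overlapped between U87MG and U87MGR. The signal in U87MGL was 11.1-fold above that in U87MG (log2 fold change 3.47, SE 0.26, limma adjusted p = 0.00371) and that in U87MGR was 11.2-fold below U87MGL (-3.48, SE 0.26, limma adjusted p = 0.0067). U87MGR and U87MG differed by -0.01 (SE 0.26, limma adjusted p = 0.987). The signals in U87MG and U87MGR lay near the array medians and are not shown to be above background, so these folds are ratios of signals. In RNA from a whole culture, fewer cells of a kind and less RNA per cell cannot be told apart.

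The other THY1 probe sets gave smaller differences of the same kind. U87MGL exceeded U87MG by 1.97 and 2.40 on the log2 scale in them, and U87MGR was below U87MGL by -2.67 and -2.53. Within the set of arrays alike in spike-in signal, U87MGR replicate 1 was below the mean of U87MGL by -3.18. The limma call of U87MGR against U87MGL was lost without U87MGL replicate 1 (-3.22, adjusted p = 0.0594) and without U87MGR replicate 2 (-3.18, adjusted p = 0.0887). It was also lost with 2 or 3 spike-in sets as a block (-3.18 in both, limma adjusted p = 0.0887 with 2). With 2 sets, 3 of all genes tested were called lower here, against 17 as reported. The call of U87MGL against U87MG held with any single array left out (3.21 to 3.73) and was lost with the blocks (2.87 and 2.80, adjusted p = 0.206 and 0.135), which compare that pair only by way of the U87MGR arrays.

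THY1 is also carried by fibroblasts, neurons and other cells. The mean log2 signal of 8 fibroblast and pericyte markers was 8.97 and 8.93 in U87MG, 8.50 and 8.25 in U87MGL, and 8.29 and 7.99 in U87MGR. Of these markers 7 were above the filter. PDGFRA, below it, was at 4.84 and 5.01 in U87MGL and 3.97 to 4.70 on the other arrays. COL1A1 had means of 11.98 in U87MG, 12.08 in U87MGL and 10.8 in U87MGR (U87MGR against U87MGL -1.28, limma adjusted p = 0.305). DCN and PDGFRB were called lower in both derivatives than in U87MG, and FAP in U87MGL. Across 8 neuron markers the mean was 6.99 and 7.04 in U87MGL against 6.78 to 7.22 on the other arrays; STMN2 and NEFL were below the filter. The 7 leukocyte markers measured had means of 5.02 to 5.24 on every array, with PTPRC, CX3CR1 and TYROBP below the filter, and the 7 endothelial markers 5.26 to 5.75, with CDH5 below it. The 5 oligodendrocyte markers measured had means of 5.55 to 5.84, with MOG, MAG and MOBP below the filter. None of the tested neuron, leukocyte, endothelial or oligodendrocyte markers was called in any comparison. The part of other cells in the THY1 values was not tested.

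Among the collagen-binding integrin subunits, ITGA2, the α2 chain of the collagen receptor α2β1, was higher in both derivatives than in the parent. Its log2 signal was 8.54 and 8.18 in U87MG, 9.61 and 10.41 in U87MGL, and 9.76 and 9.57 in U87MGR. Neither derivative overlapped with U87MG, while they overlapped with each other. U87MGL was 3.13-fold above U87MG (1.65, SE 0.28, limma adjusted p = 0.0265). The difference of U87MGR from U87MG, 1.30, missed the threshold (SE 0.28, limma adjusted p = 0.0579), and U87MGR differed from U87MGL by -0.35 (SE 0.28, adjusted p = 0.762), which was 0.05 without U87MGL replicate 2. These comparisons share the U87MG arrays. The second ITGA2 probe set gave 2.32 and 1.68 against U87MG.

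The ITGA2 call rested on more than 1 array. It was lost without U87MG replicate 2 (1.47, limma adjusted p = 0.0835), without U87MGL replicate 2 (1.25, adjusted p = 0.13), without either U87MGR array (1.65, adjusted p = 0.068) and with the spike-in blocks (1.45 and 1.27, adjusted p = 0.534 and 0.365). U87MGR against U87MG was called, at 1.30, without either U87MGL array or with only the 4 arrays compared (limma adjusted p = 0.045), with a filter at percentile 60 (1.30, adjusted p = 0.0494) and with the mean of both probe sets (1.49, adjusted p = 0.0496). Within the spike-in set that holds both, U87MGR replicate 2 was 1.02 above U87MG replicate 1.

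The remaining collagen-binding subunits had lower means in both derivatives than in the parent, and none was called. ITGA1 was at 7.56 and 7.09 in U87MG, 7.21 and 6.62 in U87MGL, and 6.82 and 6.61 in U87MGR. Only U87MGR stood clear of U87MG (-0.61, SE 0.25, limma adjusted p = 0.235), while U87MGL differed by -0.41 (adjusted p = 0.368) and the derivatives by -0.20 (adjusted p = 0.861). ITGA11 was at 7.19 and 6.71 in U87MG, 6.75 and 6.18 in U87MGL, and 6.51 and 6.29 in U87MGR. It too was clear of U87MG only in U87MGR, at -0.55 (SE 0.25, limma adjusted p = 0.278), against -0.48 in U87MGL (adjusted p = 0.302) and -0.07 between the derivatives (adjusted p = 0.96). Without U87MG replicate 1 the ITGA1 and ITGA11 differences of U87MGR from U87MG were -0.37 and -0.31. Without U87MGL replicate 2 that of ITGA11 in U87MGL was -0.19. The dimmer ITGA11 probe set above the filter gave -0.14 for U87MGR and -0.19 for U87MGL against U87MG.

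ITGA10, of cartilage collagen receptors, was at 6.05 and 6.79 in U87MG, 5.60 and 5.84 in U87MGL, and 5.72 and 6.11 in U87MGR. U87MGL lay below U87MG without overlap, by -0.70 (SE 0.27, limma adjusted p = 0.186). That difference was -1.07 and called against U87MG replicate 2 alone (limma adjusted p = 0.0423, with the spread taken from the other groups), and it was 0.06 with 3 spike-in sets as a block. U87MGR differed from U87MG by -0.50 (adjusted p = 0.346) and from U87MGL by 0.20 (adjusted p = 0.874), with overlap in both. The latter was 0 without U87MGR replicate 2 or with either spike-in block.

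Of the laminin-binding subunits, ITGA3 and ITGA7 were measured well above the filter, with log2 signals of 11.11 to 11.67 and 9.13 to 9.81, and the groups overlapped in every comparison of both. ITGB4, the partner of α6 in hemidesmosomes, was at 5.33 and 5.79 in U87MG, 5.33 and 5.25 in U87MGL, and 5.38 and 5.60 in U87MGR. U87MGR lay just above U87MGL, by 0.20 (SE 0.20, limma adjusted p = 0.815; -0.04 with the mean of all ITGB4 probe sets), and the differences from U87MG were -0.07 and, for U87MGL, -0.27 (adjusted p = 0.875 and 0.454). ITGA6, the α6 chain known as a marker of glioma stem cells, had a mean of 4.37, under the filter, and was not tested. Its arrays nevertheless fell apart by line: 4.17 and 3.85 in U87MG, 5.04 and 5.20 in U87MGL, and 4.22 and 3.77 in U87MGR. Both U87MGL arrays lay above the other 4, as for THY1. The second ITGA6 probe set was 4.88 and 5.18 in U87MGL and 2.98 to 3.23 on the other arrays. With no filter, U87MGL exceeded U87MG by 1.11 (SE 0.20, limma adjusted p = 0.0375 over 19775 genes) and U87MGR was below U87MGL by -1.13 (SE 0.20, adjusted p = 0.134). Of the 4 receptors under the filter, ITGA6 was the 1 called without it.

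**Figure D2:**
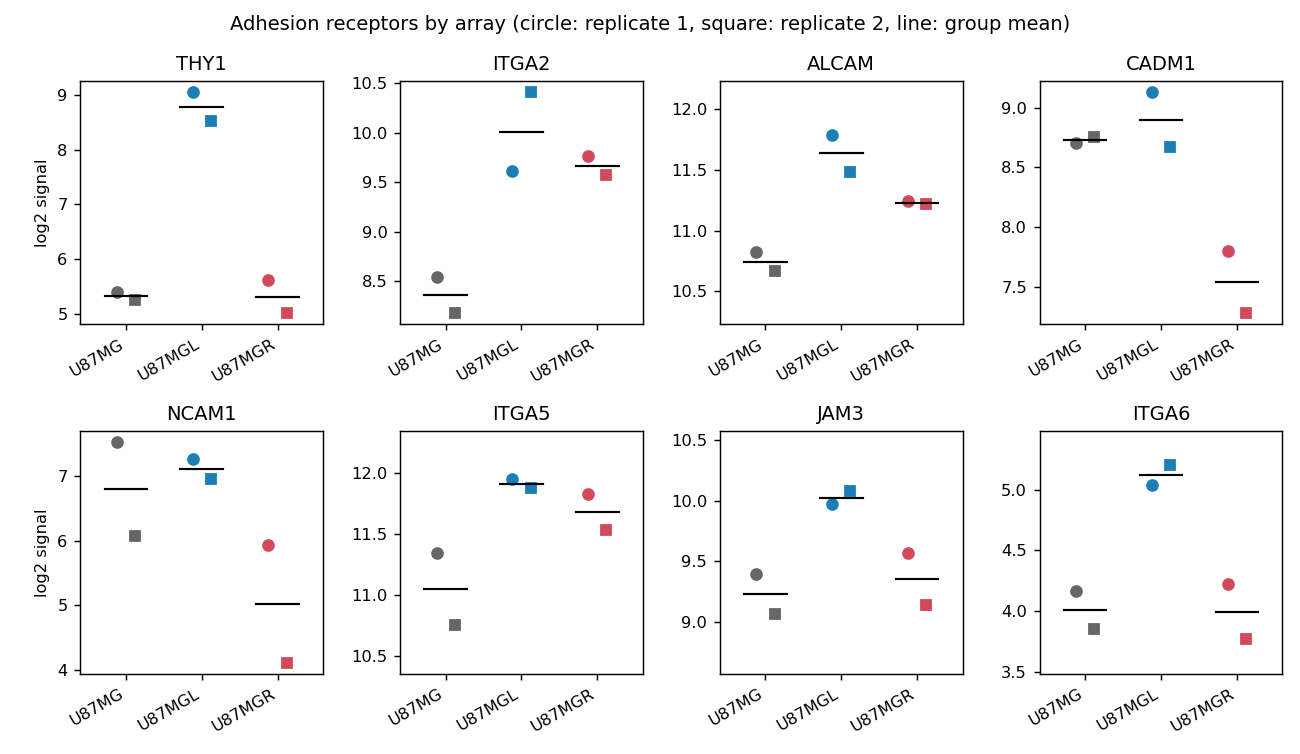
Log2 signal on each array for 8 receptor genes, by group; circles are replicate 1, squares replicate 2, and lines group means of 2 arrays. THY1 and ITGA6 are higher on both U87MGL arrays than on the other 4, though the mean of ITGA6 is under the filter. ITGA2 is higher on all 4 derivative arrays than on both U87MG arrays, and CADM1 and NCAM1 are lowest on the U87MGR arrays. The vertical scale differs between panels.

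The fibronectin receptor chain ITGA5 had log2 signals of 11.34 and 10.75 in U87MG, 11.95 and 11.88 in U87MGL, and 11.83 and 11.53 in U87MGR. All 4 derivative arrays lay above both U87MG arrays. The differences from U87MG were 0.87 for U87MGL (SE 0.23, limma adjusted p = 0.0793) and 0.63 for U87MGR (SE 0.23, adjusted p = 0.181), and neither was called; against U87MG replicate 2 alone that of U87MGL was 1.16 and was called (adjusted p = 0.0261, with the spread taken from the other groups), and with 3 spike-in sets as a block they were 0.28 and 0.19. The derivatives differed by -0.24 (adjusted p = 0.807). ITGAV, the αV chain shared by several RGD receptors, was at 10.96 and 10.59 in U87MG, 10.98 and 10.85 in U87MGL, and 10.80 and 10.24 in U87MGR. U87MGR lay below U87MGL by -0.40 (SE 0.23, limma adjusted p = 0.673) and overlapped with U87MG (-0.25, adjusted p = 0.579). Without U87MGR replicate 2, the low array, or with either spike-in block, the difference from U87MGL was -0.12. ITGA8 ran from 5.75 to 6.34, and was read through a probe set of the kind that can also bind other transcripts.

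ITGA4, which binds VCAM1 and fibronectin, was low on 1 parental array. It was at 6.09 and 4.51 in U87MG, 6.46 and 6.06 in U87MGL, and 5.81 and 6.11 in U87MGR. The differences from U87MG were 0.96 for U87MGL and 0.66 for U87MGR (limma adjusted p = 0.267 and 0.468). Against U87MG replicate 2 alone, the low array, they were 1.75 and 1.45 and both were called (limma adjusted p = 0.017 and 0.0343); these p-values take the spread from the other groups and leave out that of U87MG. Without U87MG replicate 2 they were 0.17 and -0.13. The derivatives differed by -0.30 (adjusted p = 0.885). The dimmer ITGA4 probe set above the filter gave 0.30 for U87MGL and 0.02 for U87MGR against U87MG, with overlap in both. With the mean of all ITGA4 probe sets, U87MGR differed from U87MG by 0.04.

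ITGB1, the β chain of most of these pairs, was bright, at 12.79 to 13.17 on all arrays, and its differences were 0.22 or less in size in all 3 comparisons. Its dimmer probe sets split the arrays in another way. One gave 11.69 in U87MG replicate 2 and 11.62 in U87MGR replicate 2 against 12.32 to 12.57 on the other 4 arrays, and another gave 11.13 and 11.19 against 12.02 to 12.49. Those low arrays belong to different groups and to different spike-in sets, and the cause was not tested.

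None of the β partners of αV was called. ITGB3 was at 9.25 and 8.77 in U87MG, 8.0 and 8.59 in U87MGL, and 8.93 and 8.03 in U87MGR. U87MGL lay below U87MG without overlap (-0.71, SE 0.34, limma adjusted p = 0.266), while U87MGR overlapped with both (-0.53 against U87MG and 0.18 against U87MGL, adjusted p = 0.432 and 0.911). The latter was -0.27 without U87MGR replicate 1, -0.11 without U87MGL replicate 1, -0.04 with the mean of all probe sets, and 0.63 without U87MGR replicate 2 or with either spike-in block. U87MGL against U87MG was -1.62 and -1.85 with the blocks. For that comparison the dimmer ITGB3 probe sets above the filter gave -0.92 to -0.06. ITGB8, part of a receptor that activates TGF-β, was at 7.90 and 7.33 in U87MG, 7.40 and 7.20 in U87MGL, and 6.45 and 7.44 in U87MGR. Its low value is that of U87MGR replicate 1, and the differences of U87MGR were -0.67 from U87MG and -0.36 from U87MGL (SE 0.34, limma adjusted p = 0.318 and 0.805); without that array they were -0.18 and 0.14.

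ITGB5 ran from 10.46 to 11.10, with both U87MGR arrays below the other 4 (-0.32 against U87MG and -0.33 against U87MGL, limma adjusted p = 0.385 and 0.666). ITGB6 was represented by 4 probe sets of several gene symbols and is not reported. The leukocyte subunits ITGB2, read through a probe set that can also bind other transcripts, and ITGB7 ran from 5.43 to 6.03 and from 5.88 to 6.38, and no difference in either was larger than 0.18 in size.

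ALCAM (CD166), an Ig-family receptor that binds itself and CD6, was the third receptor called in U87MGL against U87MG. Its log2 signal was 10.82 and 10.67 in U87MG, 11.79 and 11.48 in U87MGL, and 11.24 and 11.22 in U87MGR. The groups did not overlap and U87MGR lay between the others. U87MGL was 1.85-fold above U87MG (0.89, SE 0.17, limma adjusted p = 0.0371). U87MGR differed from U87MG by 0.48 (adjusted p = 0.177) and from U87MGL by -0.41 (adjusted p = 0.565).

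A second bright ALCAM probe set gave 1.72, 0.80 and -0.91 for the same comparisons. The call was lost on leaving out U87MG replicate 2 (0.82, limma adjusted p = 0.0928), U87MGL replicate 1 (0.73, adjusted p = 0.206), U87MGL replicate 2 (1.05, adjusted p = 0.14) or either U87MGR array (0.89, adjusted p = 0.0782). With the spike-in blocks the difference was 0.86 and 0.79 (adjusted p = 0.534 and 0.322).

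Promoters of ITGA2, ALCAM and ITGA6 are shown so that their motifs can be set side by side. With THY1 they are the receptors called higher in U87MGL than in U87MG, ITGA6 without the filter. They span 250 bases before to 50 after the gene's start in RefSeq (GRCh38.p14), and 26 of the 38 receptors had an entry. Capitals mark the GC box GGGCGG (the letters bound by SP1) and the E-box CANNTG (bound by helix-loop-helix factors), searched on both strands.

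ITGA2, chr5:52989102-52989401, plus strand: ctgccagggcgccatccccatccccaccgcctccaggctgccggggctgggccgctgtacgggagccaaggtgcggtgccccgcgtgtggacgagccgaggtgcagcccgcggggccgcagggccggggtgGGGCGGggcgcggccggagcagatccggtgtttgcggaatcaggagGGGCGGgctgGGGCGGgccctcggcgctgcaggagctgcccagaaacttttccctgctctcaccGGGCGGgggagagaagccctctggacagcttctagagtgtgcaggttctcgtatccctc

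ALCAM, chr3:105366659-105366958, plus strand: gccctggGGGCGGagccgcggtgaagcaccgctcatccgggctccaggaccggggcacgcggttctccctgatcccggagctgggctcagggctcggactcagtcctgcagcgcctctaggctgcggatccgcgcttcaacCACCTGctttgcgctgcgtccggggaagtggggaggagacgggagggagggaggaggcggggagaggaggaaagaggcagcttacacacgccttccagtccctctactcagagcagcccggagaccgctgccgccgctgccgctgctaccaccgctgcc

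ITGA6, chr2:172427086-172427385, plus strand: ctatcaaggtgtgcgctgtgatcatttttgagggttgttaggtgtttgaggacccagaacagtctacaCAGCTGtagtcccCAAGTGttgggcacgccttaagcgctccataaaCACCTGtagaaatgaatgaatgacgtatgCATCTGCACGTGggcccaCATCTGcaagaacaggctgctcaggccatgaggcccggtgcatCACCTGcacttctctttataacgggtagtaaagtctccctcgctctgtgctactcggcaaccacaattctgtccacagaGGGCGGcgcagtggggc

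The ITGA2 window held 4 GC boxes and no E-box, that of ALCAM held 1 of each, and that of ITGA6 held 1 GC box and 7 E-boxes. Of 27305 promoters of this length, 44.6% held a GC box and 68.9% an E-box, 9.13% held 4 or more GC boxes and 0.183% held 7 or more E-boxes. The GC content was 72.7%, 70.0% and 53.0% in the order shown, against a median of 58.3% over all promoters and 69.3% over the 26 receptors. A match is a description of the letters and not a site of binding.

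CADM1, a synaptic and epithelial Ig-family receptor studied as a tumour suppressor, was lower in the invasive cells. Its log2 signal was 8.70 and 8.75 in U87MG, 9.13 and 8.67 in U87MGL, and 7.80 and 7.28 in U87MGR. Both U87MGR arrays lay below the other 4, and U87MGL overlapped with U87MG. U87MGR was 2.28-fold below U87MG (-1.19, SE 0.24, limma adjusted p = 0.0477) and 2.57-fold below U87MGL, where it was not called (-1.36, SE 0.24, adjusted p = 0.132). Of the other CADM1 probe sets above the filter, 2 gave differences from U87MG of -1.97 and -0.58 and from U87MGL of -1.67 and -0.87, and the dimmest gave 0.05 and 0.09.

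The CADM1 call stood at the edge of the threshold. It was lost with any single array left out (-1.45 to -0.93), with the filter removed (adjusted p = 0.0527), with the mean of all CADM1 probe sets (-0.68, adjusted p = 0.075), with only the 4 arrays compared (adjusted p = 0.0666) and with the spike-in blocks (-1.45 and -1.42, adjusted p = 0.108 and 0.0774), all by limma. The direction was the same under all 15 alternatives, several of which cannot change a fold change. Within spike-in sets, U87MGR replicate 1 differed from the mean of U87MGL by -1.10 and U87MGR replicate 2 from U87MG replicate 1 by -1.42.

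NCAM1, the neural cell adhesion molecule, had the largest difference after THY1 between the derivatives but a wide spread. It was at 7.53 and 6.07 in U87MG, 7.26 and 6.96 in U87MGL, and 5.94 and 4.11 in U87MGR. U87MGR lay below both other groups without overlap. The difference was -2.09 from U87MGL (SE 0.65, limma adjusted p = 0.402) and -1.78 from U87MG (SE 0.65, limma adjusted p = 0.183), with SDs of 1.03 in U87MG and 1.30 in U87MGR (n = 2 each). Without U87MGR replicate 2 the differences were -1.17 and -0.86, and without U87MGR replicate 1 they were -3.01 and -2.70; with 3 spike-in sets as a block, that against U87MG was -3.43 and was called (limma adjusted p = 0.0319). The second NCAM1 probe set gave -1.21 and -1.42, the third, at 5.24 to 5.70 on all arrays, gave -0.03 and 0.07, and the dimmest above the filter gave -0.71 and -0.79. With the mean of all NCAM1 probe sets the differences were -0.68 and -0.76. THY1, CADM1 and NCAM1 all lie on chromosome 11, as do 7 of the 38 receptors.

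**Figure D3:**
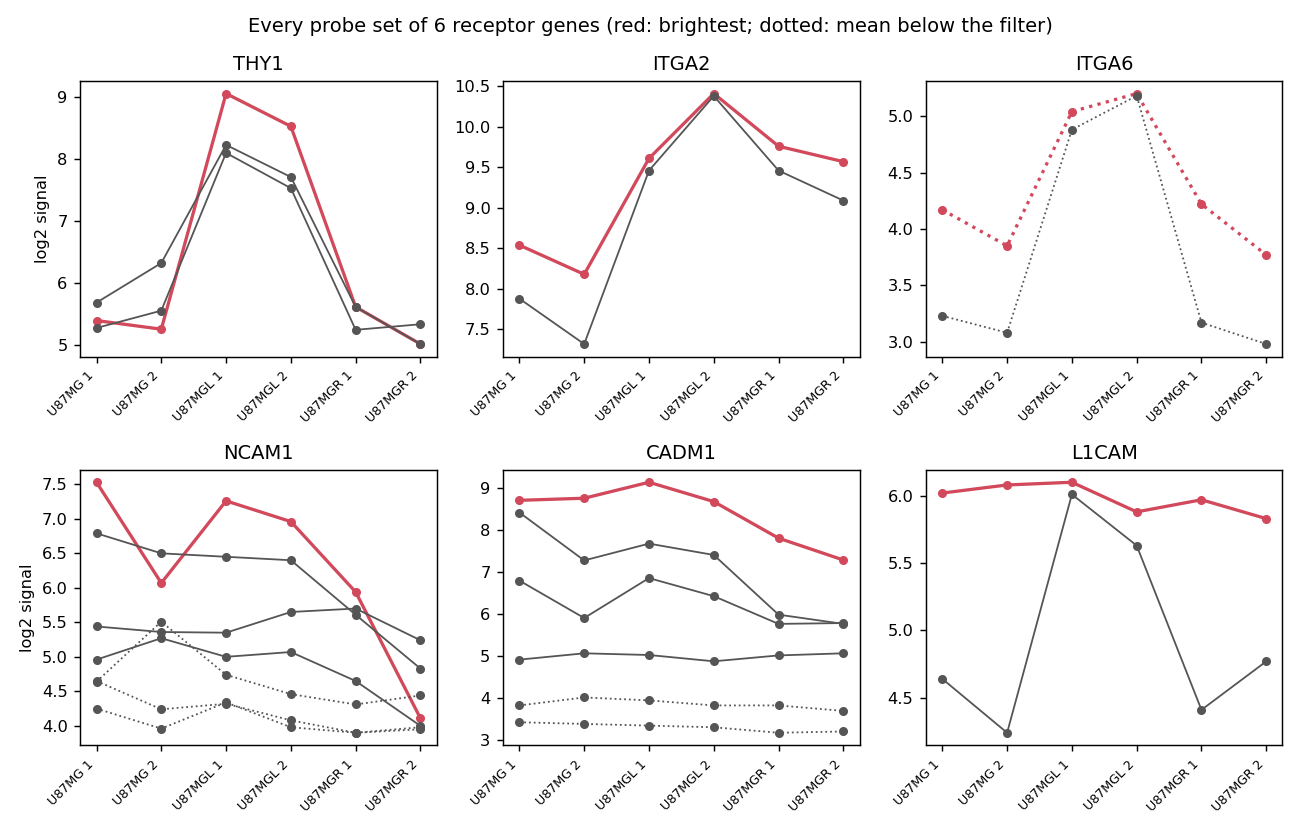
Log2 signal of every probe set of 6 receptor genes on the 6 arrays; a line joins the values of 1 probe set, red is the brightest, and dotted lines have a mean under the filter. All 3 THY1 probe sets and both ITGA6 probe sets peak on the U87MGL arrays, and the probe sets of L1CAM do not run together.

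JAM3, a junctional adhesion molecule, was higher in U87MGL. It was at 9.40 and 9.07 in U87MG, 9.97 and 10.08 in U87MGL, and 9.57 and 9.14 in U87MGR. U87MGL exceeded U87MG by 0.80 (SE 0.21, limma adjusted p = 0.0778), and U87MGR was below U87MGL by -0.67 (SE 0.21, adjusted p = 0.4), neither of them called. U87MGR and U87MG differed by 0.12 (adjusted p = 0.782). With the spike-in blocks U87MGL exceeded U87MG by 0.36 and 0.19. The dimmer JAM3 probe sets gave 0.21 and 0.47 for U87MGL against U87MG, and -1.01 and -0.99 for U87MGR against U87MGL.

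CD47, a ligand that keeps macrophages from engulfing a cell and a partner of αVβ3, was lowest in U87MGR on its brightest probe set. It was at 12.04 and 11.54 in U87MG, 11.96 on both U87MGL arrays, and 11.51 and 11.07 in U87MGR, and U87MGR differed by -0.67 from U87MGL and by -0.50 from U87MG (limma adjusted p = 0.449 and 0.273). Without U87MG replicate 1 the difference from U87MG was -0.25, without U87MGR replicate 2 it was -0.28, and with 3 spike-in sets as a block it was -0.96. The 4 dimmer CD47 probe sets above the filter gave -0.01 to -0.46 against U87MGL.

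BSG (basigin), which induces metalloproteinases, was at 12.21 and 11.75 in U87MG, 11.38 and 11.24 in U87MGL, and 11.44 and 11.63 in U87MGR. Both derivatives lay below U87MG without overlap (U87MGL -0.67, limma adjusted p = 0.105, and U87MGR -0.44, adjusted p = 0.264), and U87MGR was above U87MGL by 0.23 (adjusted p = 0.781).

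L1CAM, a receptor of growing axons, gave 5.83 to 6.10 on its brighter of 2 probe sets. Both U87MGR arrays lay below both U87MG arrays there (-0.14, limma adjusted p = 0.66), and U87MGL overlapped with both groups. The dimmer one, whose mean of 4.95 passes the filter through U87MGL, was at 6.01 and 5.63 in U87MGL and at 4.24 to 4.77 on the other 4 arrays, so that U87MGL exceeded U87MG by 1.38 and U87MGR was below U87MGL by -1.23. That second probe set was not part of the test, and it was singled out after its values were seen. NEO1, a receptor for netrin and repulsive guidance molecules, was at 7.25 and 6.29 in U87MG, 7.25 and 7.80 in U87MGL, and 7.15 and 6.97 in U87MGR (U87MGL against U87MG 0.76, limma adjusted p = 0.229; 1.24 and called against U87MG replicate 2 alone, adjusted p = 0.0406). The second NEO1 probe set, with a mean of 7.01 beside 7.12, ran the other way without overlap, at 7.29 and 7.22 in U87MG and 6.97 and 7.09 in U87MGL (-0.22).

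MCAM, an endothelial and melanoma receptor, was at 8.17 and 8.41 in U87MG, 8.32 and 8.84 in U87MGL, and 8.91 and 8.30 in U87MGR, with overlap in every comparison (0.32 in U87MGR against U87MG, SE 0.26, limma adjusted p = 0.545; 0.01 without U87MGR replicate 1). MCAM was read through a probe set that can also bind other transcripts, and 4 further MCAM probe sets of several gene symbols were not used. ICAM1, a ligand of leukocyte integrins, ran from 7.77 to 8.75 and also overlapped in every comparison. BCAM, a laminin receptor, was at 6.12 and 6.59 in U87MG, 6.01 and 5.87 in U87MGL, and 5.99 and 6.30 in U87MGR. U87MGL lay below U87MG by -0.41 (SE 0.21, limma adjusted p = 0.293; -0.18 without U87MG replicate 2 and 0.14 with 3 spike-in sets as a block), and U87MGR overlapped with both.

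NRCAM, of the L1 family, was at 5.56 and 4.89 in U87MG, 4.51 and 4.85 in U87MGL, and 4.55 and 4.92 in U87MGR. Its mean of 4.88 passes the filter of 4.73 through U87MG (5.22, against 4.68 in U87MGL and 4.74 in U87MGR). U87MGL lay just below U87MG (-0.54, SE 0.27, limma adjusted p = 0.269), by -0.21 without U87MG replicate 1. U87MGR overlapped with both (-0.49 against U87MG, adjusted p = 0.35, and 0.06 against U87MGL). The latter was -0.11 without U87MGL replicate 1, and -0.13 without U87MGR replicate 2 or with either spike-in block. CNTN1, VCAM1 and ITGA9 were below the filter, with means of 4.39, 3.95 and 4.48, and without a filter none of them was called in any comparison (limma adjusted p from 0.32 to 0.971).

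None of the 3 tetraspanins was called. All 3 had both U87MGR arrays below both U87MGL arrays, as did 23.3% of all genes. For CD81 and CD151 that difference was -0.11 and -0.07, smaller than its SE (0.19 and 0.31). CD9 was at 11.55 and 11.18 in U87MG, 12.10 and 11.90 in U87MGL, and 11.60 and 11.49 in U87MGR. U87MGL exceeded U87MG by 0.63 (SE 0.18, limma adjusted p = 0.101) and U87MGR was below U87MGL by -0.46 (SE 0.18, adjusted p = 0.54), in both cases without overlap. CD81 ran from 11.53 to 12.01. CD151, which binds laminin-binding integrins, was at 11.02 and 10.0 in U87MG, 10.88 on both U87MGL arrays, and 10.84 and 10.79 in U87MGR, so that U87MG replicate 2 was the low array. The differences from U87MG were 0.37 for U87MGL and 0.30 for U87MGR (SE 0.31, limma adjusted p = 0.508 and 0.626). Against U87MG replicate 2 alone they were 0.88 and 0.81 and called (limma adjusted p = 0.0311 and 0.0454), again with the spread taken from the other groups, and without U87MG replicate 2 that of U87MGR was -0.21.

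The classes are described by counts, with no test between them. In U87MGR against U87MGL, 8 of 33 receptors had a fold change above 0, beside 50.3% of all genes. Of the 16 other receptors, 10 had both U87MGR arrays below both U87MGL arrays and 1 had them above (median -0.28), and of the 17 integrin subunits 5 were below and 1 above (median -0.14). Together 17 of 33 did not overlap, beside 46.6% of all genes, of which 23.3% were below and 23.3% above with a median of 0.00. All 7 receptors lower at the unadjusted limma threshold were of the other class: THY1, NCAM1, CADM1, CD47, JAM3, CD9 and ALCAM.

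In U87MGL against U87MG, 18 of 33 had a fold change above 0 (48.1% of all genes). Of the other receptors 4 lay above U87MG and 3 below without overlap (median 0.24). NRCAM, among those below, passes the filter through U87MG. Of the integrin subunits 3 lay above and 3 below (median -0.09). These 13 of 33 stand beside 56.4% of all genes (28.1% above and 28.3% below, median -0.02). In U87MGR against U87MG, 12 of 33 had a fold change above 0 (49.4% of all genes). Of the other receptors 1 lay above and 5 below (median -0.08), and of the integrin subunits 2 above and 4 below (median -0.17). These 12 of 33 stand beside 48.4% of all genes (24.2% above and 24.2% below, median -0.01).

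Of 39 tested genes of the integrin adhesion complex, which couples integrins to actin, 4 rose and none fell in U87MGR against U87MG, beside 1.86% and 1.44% of all genes: ACTN4, an actin crosslinker (1.05), KANK1, a talin-binding regulator of adhesions (1.39), TLN1, talin itself (1.19), and PTK2, the focal adhesion kinase (0.97; limma adjusted p = 0.0364, 0.0194, 0.0384 and 0.0481). In U87MGL against U87MG 3.02% of all genes rose and 1.8% fell. ACTN4 (1.18) and the paxillin relative LPXN (1.07) rose there. APBB1IP, the RAP1 effector RIAM that recruits talin, fell by -1.93 (limma adjusted p = 0.0226, 0.0293 and 0.0104 in that order). KANK1, TLN1 and PTK2 were higher there too, by 0.68, 0.69 and 0.71, but not called (limma adjusted p = 0.0833, 0.118 and 0.0872). In U87MGR, LPXN and APBB1IP differed from U87MG by 0.69 and -0.63, also not called (limma adjusted p = 0.0964 and 0.152). In U87MGR against U87MGL none was called, with 3 higher and 0 lower at the unadjusted limma threshold of 0.05 (3.91% and 4.94% of all genes), and the widest values were APBB1IP at 1.30 and TNS1 at -0.62.

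Of 21 tested integrin ligands, THBS1 (thrombospondin, 0.89) rose and LAMA1 (a laminin chain, -2.24) and SPP1 (osteopontin, -1.33) fell in U87MGL against U87MG. Their limma adjusted p-values were 0.0334, 0.0104 and 0.044, beside 3.02% of all genes higher and 1.8% lower. In U87MGR the same genes differed from U87MG by 0.16, -1.16 and -0.17, not called (limma adjusted p = 0.641, 0.058 and 0.78). CCN1 differed from U87MG by 2.98 in U87MGL, also not called (limma adjusted p = 0.116). None was called in U87MGR against U87MG, where 4 were higher and 5 lower at the unadjusted limma threshold of 0.05 (11% and 9.78% of all genes) and the extremes were CCN1 at 2.90 and COL1A1 at -1.18 (limma adjusted p = 0.136 and 0.109). None was called in U87MGR against U87MGL, where 4 were higher and 3 lower at that threshold (3.91% and 4.94% of all genes) and the extremes were SPP1 at 1.17 and COL1A1 at -1.28 (limma adjusted p = 0.24 and 0.305). Of 6 other integrin subunits tested none was called by limma in any comparison; 1, ITGAX, was lower in U87MGR than in U87MG at an unadjusted p under 0.05 (-0.59), and no other passed at that level in the 3 comparisons. The extremes were ITGBL1 at 0.57 and ITGAX at -0.26 in U87MGR against U87MGL, ITGBL1 at 0.40 and ITGAX at -0.59 in U87MGR against U87MG, and ITGAE at 0.30 and ITGAX at -0.33 in U87MGL against U87MG.

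The genes whose signal followed that of THY1 most closely over the 6 arrays were ZNF788P (Pearson r = 0.994), IKBIP (0.988), HEG1 (0.985), TESPA1 (0.985) and SNRNP25 (0.984). The arrays share their groups and labelling, and with 6 points such values describe a pattern only. ZNF788P was at 6.43 and 6.34 in U87MGL and 4.01 to 4.39 on the other arrays. HEG1, a transmembrane protein of vessel formation, was at 10.73 and 10.57 in U87MGL and 9.85 to 10.06 elsewhere.

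**Figure D4:**
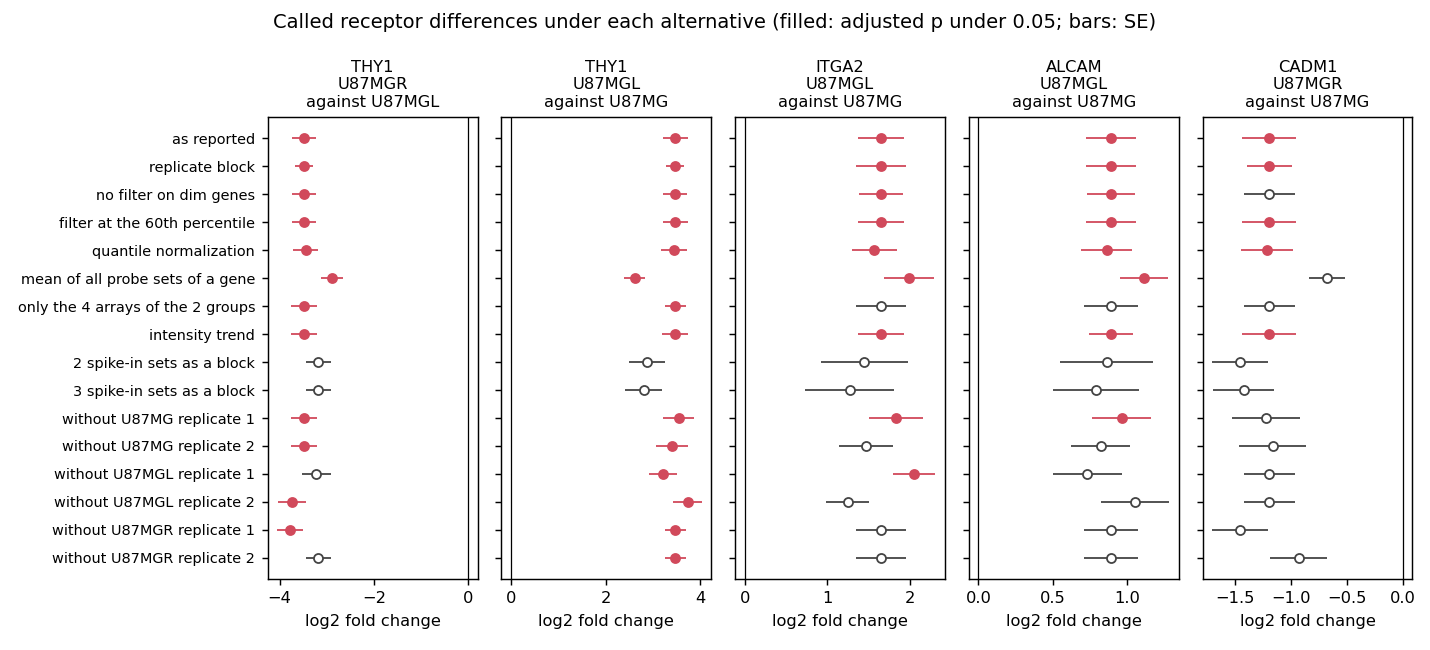
Log2 fold change and standard error of the 5 called receptor differences, as reported and under 15 alternatives (filled points: adjusted p under 0.05). Several of the 15 alternatives cannot change a fold change. THY1 in U87MGL against U87MG was called under 13 of them, THY1 in U87MGR against U87MGL under 11, ITGA2 under 8, ALCAM under 7 and CADM1 under 4, and no point crosses 0.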

How the data were processed

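The authors deposited log2 signals for 54675 probe sets, read from 1-colour arrays of biotin-labelled cRNA (per the labels). How they were normalized is not stated in the labels; the array medians were nearly equal, and no further normalization was applied. By the platform annotation 41097 probe sets carried 1 gene symbol, 1801 several and 11777 none; 41043 matched RefSeq GRCh38.p14.

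A limma model (3.58.1, R 4.3.3) with a mean per group was fitted to all 6 arrays (3 residual and 4.05 prior degrees of freedom), with two-sided tests and Benjamini-Hochberg adjustment over 14513 genes. Precision is limited by the number of arrays, and standard errors had a median of 0.19. On simulated data of 14513 genes, 67 genes per comparison were given a log2 change of 1, 67 a change of 2 and 66 a change of 3. The noise was drawn independently for each array, with no spike-in sets in it. The change of 1 was recovered for 43.3% of its genes in U87MGR against U87MGL, 37.3% in U87MGR against U87MG and 26.9% in U87MGL against U87MG. False calls numbered 7, 1 and 7. All 3 comparisons were simulated with the same design and spread, so these percentages differ by the random draw and do not rank the comparisons.

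Receptors, linked lists and alternatives were chosen with earlier results of these data known. Array values are given for each called receptor and the 3 highest and 3 lowest of each class per comparison, ranges or array values for the others, and called genes or the extremes of each linked list. Further receptors, and probe sets beside the brightest, were picked after their values were seen. Replicate numbers did not pair the arrays. The alternatives were the filter, quantile normalization, the mean of all probe sets of a gene, only the arrays compared, an intensity trend, replicate and spike-in blocks, and leaving out each array. Genes of the linked lists were not followed through them.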

Additional observations from a re-analysis of the deposited data

Results flagged for a closer look

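THY1 differed between the derivatives in its shift from the parental line: the shift in U87MGR minus that in U87MGL was -3.48 on the log2 scale (limma adjusted p = 0.0067, lower on 2 of 2 U87MGR arrays than on both U87MGL arrays). Both shifts use the same U87MG arrays.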

How the results depend on the processing

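Of 36 receptor differences named by rule, 26 kept their sign under every one of the 15 alternatives that gave a value, the 5 called ones among them. Signs were read from rounded values. ITGA10 in U87MGR against U87MGL, which rounds to 0 under some alternatives and never turned below 0, is therefore not among the 26. A fold change cannot move with the replicate block, the filters, only the arrays compared or the intensity trend. Nor can it move when an array of the group not compared is left out. In U87MGR against U87MGL, either spike-in block gave the value without U87MGR replicate 2. A kept sign therefore tests only the remaining alternatives. Receptors called lower in U87MGR against U87MGL numbered 1; the count was 0 with 2 and with 3 spike-in sets as a block, and 0 to 1 with 1 array left out (0 without U87MGL replicate 1 or U87MGR replicate 2). Receptors called higher in U87MGR against U87MG numbered 0. There was 1 (ITGA2) with a filter at percentile 60 and with only the 4 arrays compared. There were 2 (ITGA2 and ALCAM) with the mean of all probe sets. Receptors were also called without either U87MGL array and without U87MG replicate 1, where more of all genes were called too. The 1 called lower there became 0 with no filter, the mean of all probe sets, only the 4 arrays, 2 spike-in sets, and without any 1 array; with 3 spike-in sets the 1 called was NCAM1, not CADM1. Receptors called higher in U87MGL against U87MG numbered 3; the count was 1 with only the 4 arrays, 0 with 2 and with 3 spike-in sets, and 1 to 8 with 1 array left out (8 without U87MG replicate 1). None was called lower in U87MGL against U87MG. With 1 array left out, only ITGA10 was, without U87MG replicate 1, where more of all genes were called lower too. Equally numbered arrays did not deviate together (correlations of -0.09, 0.11 and 0.01). With the replicate number as a block the counts were as reported: 0 higher and 1 lower, 0 and 1, and 3 and 0 in the same order of comparisons, and no named call changed. With 1 array left out, the lone array of that group is assumed to vary like the other groups. The number of all genes called changed too. Called higher in U87MGL against U87MG were 438 as reported, 124 with only the 4 arrays and 0 with 2 spike-in sets. Called lower in U87MGR against U87MG were 209 as reported, 189 with no filter, 122 with only the 4 arrays and 6 with 2 sets. In U87MGR against U87MGL 17 were lower as reported and 3 with 2 sets. The receptor counts are therefore not a result about the receptors alone. The causes of these changes were not tested. Signal over background limits what can be read of ITGA6, ITGA9, VCAM1 and CNTN1, which lie under the filter.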
